A study of Mus musculus with 5 samples.

Results

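CD142+ adipose progenitors of mouse subcutaneous fat (SAT) were compared with those of visceral fat (VAT) by RNA sequencing. The members are 3 of the 5 libraries in the series, chosen by library name: 1 SAT library named for CD142 and 2 VAT libraries named for CD142. The study sorted adipose-derived stem cells on CD26 and CD142 from the stromal vascular fraction, which is the cell pellet left after fat is digested and the adipocytes float off. All groups were wild type (WT) and on chow diet, and the labels name 30 mice, aged 12 to 14 weeks. The sort left out cells positive for CD31 (endothelial) or CD45 (immune) in every group. The labels give neither the strain nor the sex, do not say which fat pads were taken, and leave unstated whether each library is a pool of its own. All p-values therefore measure a spread between libraries that may be technical. In the main fit it is the spread of the 2 VAT CD142 libraries alone. The 2 other libraries, SAT CD26 library 2 and VAT CD26CD142 library 2, stayed in the main fit but add no residual spread to it. They served as a second comparison of the depots, in which the CD142 gate also differs by name.

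The SAT library carries conflicting labels. Its library name gives CD142, but its title and its cell type label give CD26+CD142-, and the library named for CD26 is titled CD26-CD142+. The VAT libraries named for CD142 are titled CD26-CD142+, and the one named for CD26CD142 is titled CD26+CD142+, so names and titles do not conflict there. The groups here follow the library names, and the values obtained with the titles are given where they turn a direction.

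CD142 is tissue factor, the product of F3, a membrane protein that starts the extrinsic pathway of blood clotting. In adipose stroma it marks a progenitor population described as adipogenesis-regulating cells (Aregs), while CD26, the peptidase encoded by Dpp4, marks interstitial progenitors that lie upstream of committed preadipocytes. Subcutaneous and visceral fat arise from different embryonic mesoderm, and their progenitors keep developmental transcription factors of the regions they come from, such as Tbx15 in subcutaneous and Wt1 and Tcf21 in visceral fat.

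The genes used for sorting were read first, because they bear on the labels. Levels are CPM, counts scaled to each library's size after normalization by the trimmed mean of M values. F3 stood at 618 CPM in the SAT CD142 library, 379 in VAT CD142 library 1 and 241 in VAT CD142 library 2, against 5.32 in the SAT CD26 library and 99.1 in the VAT CD26CD142 library. All 3 CD142 libraries were thus above both other libraries, and the SAT library was the highest. Dpp4 stood at 6.58, 5.13 and 6.58 CPM in the same 3 libraries, against 1006.9 in the SAT CD26 library and 417 in the VAT CD26CD142 library. Neither gene differed between the depots past the threshold (F3 log2 difference 1.00 ± 0.50 SE, adjusted p = 0.598; Dpp4 0.17 ± 0.52, adjusted p = 0.994; edgeR quasi-likelihood test). With F3 and Dpp4, the library names go with the RNA of the 2 SAT libraries and their titles go against it. The gated-out markers were low: Pecam1 (CD31) was at 6.36, 4.90 and 2.32 CPM and Ptprc (CD45) at 0.260, 0.183 and 0.387.

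Depth was even, from 21706345 to 25357403 counts in the 5 libraries. The libraries numbered 1 stood apart from those numbered 2 in 2 respects. Mitochondrially encoded genes held 2.83% of counts in the SAT CD142 library and 4.33% in VAT CD142 library 1, against 0.633% in VAT CD142 library 2 and 0.554% and 0.620% in the 2 others. Hepatocyte genes, a list of 18 drawn up after these values had been seen, summed to 399 CPM in the SAT CD142 library and 186 in VAT CD142 library 1, against 20.0, 10.2 and 12.9 in the libraries numbered 2. Alb (albumin) led them, at 106, 52.7 and 3.74 CPM in the 3 CD142 libraries. None of the 18 genes differed between the depots past the threshold, and their part in other results was not tested. Many of them, such as Alb, lay far apart within the VAT pair, the only source of residual spread, so that outcome says little. The pair with the same number, SAT CD142 library 1 and VAT CD142 library 1, is therefore given beside the comparison of all 3.

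In the main comparison, 217 of 15920 tested genes were higher in the SAT library (1.36%) and 158 were lower (0.992%), or 2.36% in either direction (edgeR quasi-likelihood test over 4 groups and 5 libraries, Benjamini-Hochberg adjusted p under 0.05). Developmental transcription factors were among the genes with the largest differences in either direction, and genes of the matrix, of complement and of secreted Wnt antagonists and chemokines were among the most abundant called. Every called gene had the SAT library above both or below both VAT libraries. With 1 library against 2 this is a weak condition, and its share over all tested genes was not counted. Of the called genes, 160 of the higher and 112 of the lower were also at least 2-fold apart in each single pair of libraries. The residual spread rests on 1 degree of freedom, that of the VAT CD142 pair, and the single SAT library has no spread of its own, so that of the VAT pair stands in for it. Without VAT CD142 library 2, in the model that could still be fitted (depot plus CD26 status), no gene was called although 1990 had an unadjusted p under 0.05. Without VAT CD142 library 1 that model called 75 higher and 97 lower.

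**Figure D1:**
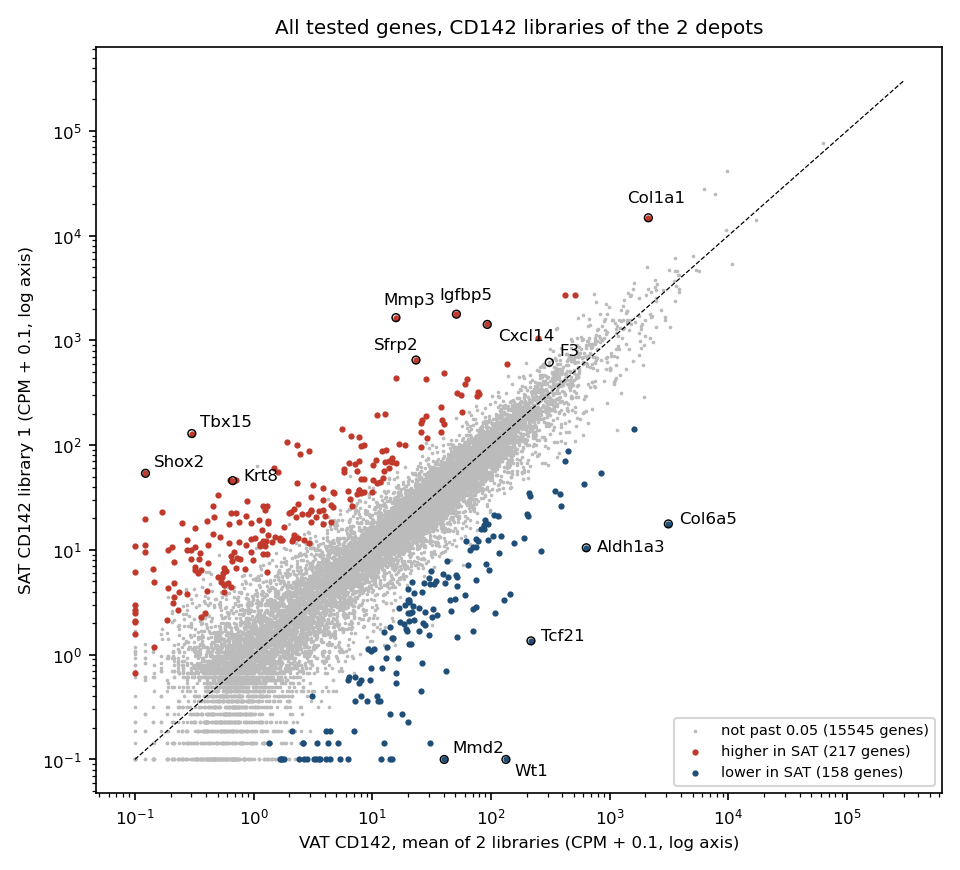
Each point is 1 of 15920 tested genes, with the mean CPM of the 2 VAT CD142 libraries on the x axis and the CPM of the SAT CD142 library on the y axis (both log axes, 0.1 CPM added; dashed line, equal values). Red points (217) were higher and blue points (158) lower in SAT at adjusted p under 0.05; F3 lies near the line, while Shox2, Tbx15 and Mmp3 lie far above it and Wt1, Tcf21 and Col6a5 far below it.

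Lhx8, Shox2, Prdm6, Tbx15, Irx1 and Irx2, transcription factors of development, were among the 15 named genes with the largest fitted increase in SAT. Tbx15, a T-box factor of subcutaneous fat and skin mesenchyme (chr3:99240381-99354259, mm10 as in the deposited table), was at 129 CPM in the SAT library and at 0.275 and 0.129 in the VAT libraries. The groups are far apart, and the log2 difference was 9.29 ± 0.64 (SE; adjusted p = 3.26e-06). In the pair numbered 1 the ratio was 469, with a 95% counting interval of 215 to 1279. Shox2, a homeobox factor of the limb skeleton (chr3:66971727-66981771), gave 1243 counts in the SAT library, 1 count in VAT library 1 and 0 in VAT library 2. Its ratio over the VAT pair was 2424, with a counting interval of 434 to 95823 that shows how little the VAT side fixes it. Lhx8, a LIM-homeobox factor, had 250 counts in the SAT library and none in either VAT library, which makes it at least 163-fold higher against a floor of 3 counts over the VAT pair, and at least 78.7-fold higher in the pair numbered 1. These intervals and floors hold only the error of counting, and the reads carry no molecular identifiers, so copies of 1 molecule may be counted more than once.

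Among the iroquois homeobox genes, Irx1 stood at 22.8, 0.138 and 0 CPM and Irx2 at 25.9, 0.413 and 0.301, in the order SAT, VAT library 1, VAT library 2. These genes are neighbours on chromosome 13 (Irx1 at chr13:71957921-71963723, Irx2 at chr13:72628820-72634198). Irx5, on chromosome 8, stood at 4.85, 0.0917 and 0 CPM and was called with edgeR (adjusted p = 0.00120) but not with DESeq2 (adjusted p = 0.779), while its neighbour Irx3 did not pass (2.90, 0.458 and 0.172 CPM; adjusted p = 0.0779). Prdm6, a zinc-finger repressor best known from smooth muscle, stood at 19.8, 0.0458 and 0 CPM. En1 (engrailed, which specifies ventral ectoderm of the limb and marks a dermal fibroblast lineage) was at 18.0, 1.01 and 1.46 CPM. For all of these the SAT library was above both VAT libraries, as it was for every gene called higher. The hormone gene Stc1 (stanniocalcin 1), not a transcription factor, stood among them by size, at 11.0, 0.0458 and 0 CPM.

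Of the 19 genes listed as subcutaneous developmental genes, 18 were tested and 13 were higher, with a median log2 difference of 5.00 against -0.04 for all tested genes. The counts of this and every later list stand beside 1.36% higher and 0.992% lower among all tested genes. A single called member says little about its list. Besides those above they were Hoxc10, Hoxa9, Hoxa10, Mab21l1, Sfrp2 and Tbx5, and Pitx1 was removed by the filter on low counts. Hoxc8 (50.2, 82.0 and 42.7 CPM; adjusted p = 0.990), Hoxc9, Irx3, Twist1 and Twist2 did not pass. Of the 18 visceral developmental genes, 16 were tested, 3 were lower and none was higher, with a median of -1.22. Both lists were chosen with earlier results of these data known, so their directions are not independent evidence.

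Wt1, the Wilms tumour factor of visceral mesothelium and fat (chr2:105126529-105173616), had 0 counts in the SAT library, 2472 in VAT library 1 and 3589 in VAT library 2. That is at least 1036-fold lower against a floor of 3 counts, and at least 873-fold lower in the pair numbered 1. Wt1os, an antisense gene that ends just before Wt1 in the table's coordinates, was lower too (0, 3.58 and 6.84 CPM). Tcf21, a basic helix-loop-helix factor of visceral mesoderm (chr10:22817281-22820174), stood at 1.25, 212 and 223 CPM, a log2 difference of -7.43 ± 0.72 (adjusted p = 4.49e-05). The VAT libraries lay close together and the SAT library was far below them, with a VAT to SAT ratio of 169 in the pair numbered 1. Hoxa5, which patterns lung and trunk mesoderm, was at 9.91, 73.8 and 58.5 CPM (log2 difference -2.74 ± 0.56, adjusted p = 0.0132). Gata4, Gata6, Bnc1, Tbx18 and Nr2f1 did not pass, and Tbx20 had no count in any library.

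Annotated transcription factors were examined as a class beyond these lists, using the family named for each gene in the deposited table. Of 996 tested factors, 25 were higher and 10 lower, or 3.51%, beside 2.28% of the other tested genes. The homeobox family held most of them, with 15 higher and 4 lower of 86 tested. The higher ones included Meox2, a mesenchymal growth-arrest homeobox gene and Areg marker, at 142, 6.42 and 4.52 CPM. Msx1 (90.3, 13.1 and 12.9 CPM) and Gsc (71.7, 15.1 and 6.24 CPM) were also higher, as were Lmx1a and Lmx1b. Alx1 (0, 7.24 and 4.99 CPM) and Meis1, a cofactor of HOX proteins (12.1, 56.7 and 66.9 CPM), were lower. Gli1, a target and effector of hedgehog signalling, was higher at 44.7, 10.1 and 13.1 CPM, and Gata2 was lower at 0.260, 8.62 and 14.3 CPM.

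Of 25 tested HOX genes, 3 were higher and 1 was lower, and no tested gene of the B (7) or D (2) cluster passed. In the A cluster, Hoxa9 (20.4, 2.84 and 1.55 CPM) and Hoxa10 (15.5, 1.83 and 0.344 CPM) were higher in SAT while Hoxa5 was lower. Hoxa7, between them, did not pass (10.8, 25.5 and 22.0 CPM). In the C cluster Hoxc10 rose to 55.9 CPM from 1.97 and 1.08 (log2 difference 5.20 ± 0.54, adjusted p = 6.97e-05). The genes on either side, Hoxc11 (2.08, 0.321 and 0 CPM; adjusted p = 0.264) and Hoxc9 (39.4, 20.4 and 10.8 CPM; adjusted p = 0.289), did not pass, nor did Hoxc6 (43.2, 49.0 and 35.4 CPM).

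**Figure D2:**
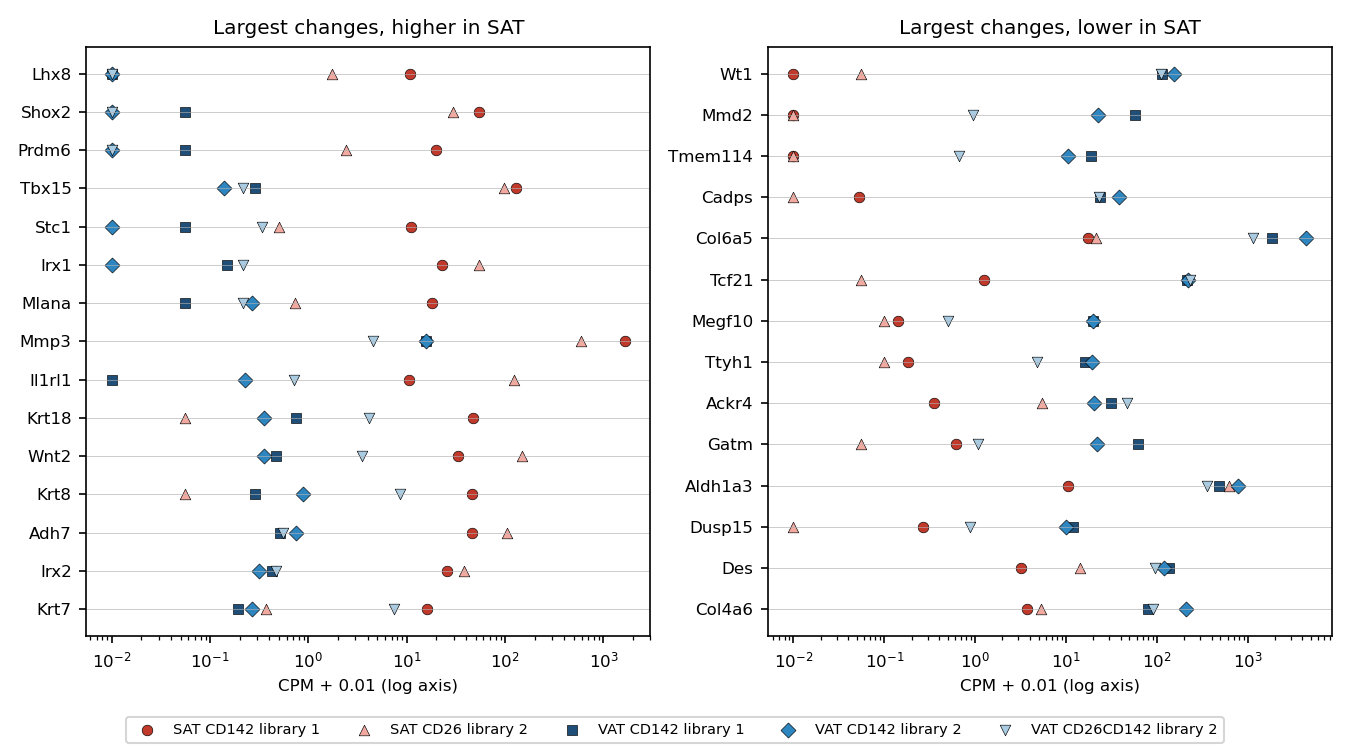
CPM of the named genes with the largest log2 changes in each direction, 15 higher and 14 lower in SAT (log axis, 0.01 CPM added), with 1 marker for each of the 5 libraries. The SAT CD142 library (red circle) lies apart from both VAT CD142 libraries (dark square and diamond) for all of them. The SAT CD26 library (pale triangle) lies with or near the VAT side for some, among them Krt7, Krt8, Krt18, Aldh1a3, Stc1 and Mlana.

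Mmp3 had the largest difference among the 10 most abundant named genes that were higher in SAT. The gene, which encodes stromelysin 1, a secreted protease that cleaves proteoglycans, fibronectin and other metalloproteinases, stood at 1649 CPM in the SAT library and at 15.8 and 15.7 in the VAT libraries (log2 difference 6.71 ± 0.56, adjusted p = 1.23e-05). The VAT libraries were nearly equal and the ratio in the pair numbered 1 was 104 (93.8 to 116). Mmp3 lies in a cluster of metalloproteinase genes on chromosome 9 (chr9:7445822-7455975). In that cluster Mmp27 was also higher (37.0, 7.43 and 7.74 CPM), whereas Mmp10, Mmp13 and Mmp20 had no count in any of the 3 libraries. The Mmp3 promoter is shown because an activator protein 1 (AP-1) motif is a known element of this gene. It is given from RefSeq (GRCm38.p6, chr9:7445572-7445871, plus strand, 5′ to 3′), with a match to TGANTCA in capitals.
Mmp3: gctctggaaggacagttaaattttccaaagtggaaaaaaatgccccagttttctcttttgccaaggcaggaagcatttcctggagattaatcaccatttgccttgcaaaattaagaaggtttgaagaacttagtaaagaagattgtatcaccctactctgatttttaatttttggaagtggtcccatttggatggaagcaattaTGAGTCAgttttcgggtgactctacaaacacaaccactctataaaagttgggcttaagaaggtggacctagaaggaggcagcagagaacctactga
A match to this motif on either strand occurred in 7.81% of 32851 promoters of the same 300 bases, and a match is a description of letters only. In the protease list it was present in 1 of the 3 promoters of genes that were higher in SAT. It was present in none of the 11 promoters of genes that did not pass, and in all 3 found promoters of genes left out by the filter on low counts.

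The protease list as a whole did not move one way. Of 23 tested proteases and inhibitors, 3 were higher and 1 lower, with a median of -0.42. The third gene that was higher was Timp1, an inhibitor of metalloproteinases, at 163, 25.6 and 25.9 CPM. Adamts16 was lower at 0.0433, 1.15 and 1.33 CPM with edgeR (adjusted p = 0.0149) but did not pass with DESeq2 (adjusted p = 0.0677) or with the 3 libraries alone (adjusted p = 0.196). Mmp2, the gelatinase, did not pass (3124, 1685 and 1445 CPM; adjusted p = 0.683).

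Collagen genes divided by chain. Col1a1, the alpha 1 chain of fibrillar type I collagen, stood at 14812 CPM in the SAT library and at 1508 and 2736 in the VAT libraries (log2 difference 2.80 ± 0.59, adjusted p = 0.0157). Its partner Col1a2 (28069, 5948 and 6458 CPM; adjusted p = 0.0621) and Col3a1 (41435, 11129 and 8482 CPM; adjusted p = 0.0879) had a SAT library above both VAT libraries but did not pass. Of the type VI chains, Col6a5 and Col6a6 were lower, while Col6a1, Col6a2, Col6a3 and Col6a4 did not pass. Col6a5 stood at 17.6 CPM in the SAT library against 1835 and 4421 in the VAT libraries (log2 difference -7.47 ± 0.93, adjusted p = 0.000372). The VAT libraries were more than 2-fold apart for this gene, but both were far above the SAT library. Its neighbour on chromosome 9, Col6a6 (chr9:105687809-105828160), was at 54.2, 635 and 1044 CPM, and Col6a4 beside them at 0.649, 2.15 and 2.32 (adjusted p = 0.705). The basement membrane chain Col4a6 (3.68, 79.9 and 209.8 CPM) and the short-chain Col8a2 (1.95, 12.7 and 21.1 CPM) were the other 2 that fell, so that 1 of 26 tested collagens was higher and 4 were lower (median -0.18).

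Of 34 tested other matrix genes, 6 were higher and 1 was lower (median -0.34). The higher ones were Mfap2 (microfibrils), Aspn (asporin), Thbs2 and Thbs4 (thrombospondins), Tnc (tenascin C) and Wisp2, which is also named Ccn5. Thbs2 stood at 174, 20.7 and 32.2 CPM, and Aspn at 158, 52.4 and 28.7. Tnc (12.1, 0.458 and 1.76 CPM) was called with edgeR (adjusted p = 0.0367) but not with DESeq2 (adjusted p = 0.0519). Cilp, a cartilage intermediate layer protein found in fibroblasts, was lower at 71.3, 321 and 520 CPM. Genes of that kind outside the list were Tgfbi, a collagen-binding adhesion protein, higher at 593, 111 and 162 CPM, and the matrix genes Vwa1 (26.1, 399 and 384 CPM) and Matn2 (34.1, 391 and 374 CPM), which were lower.

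**Figure D3:**
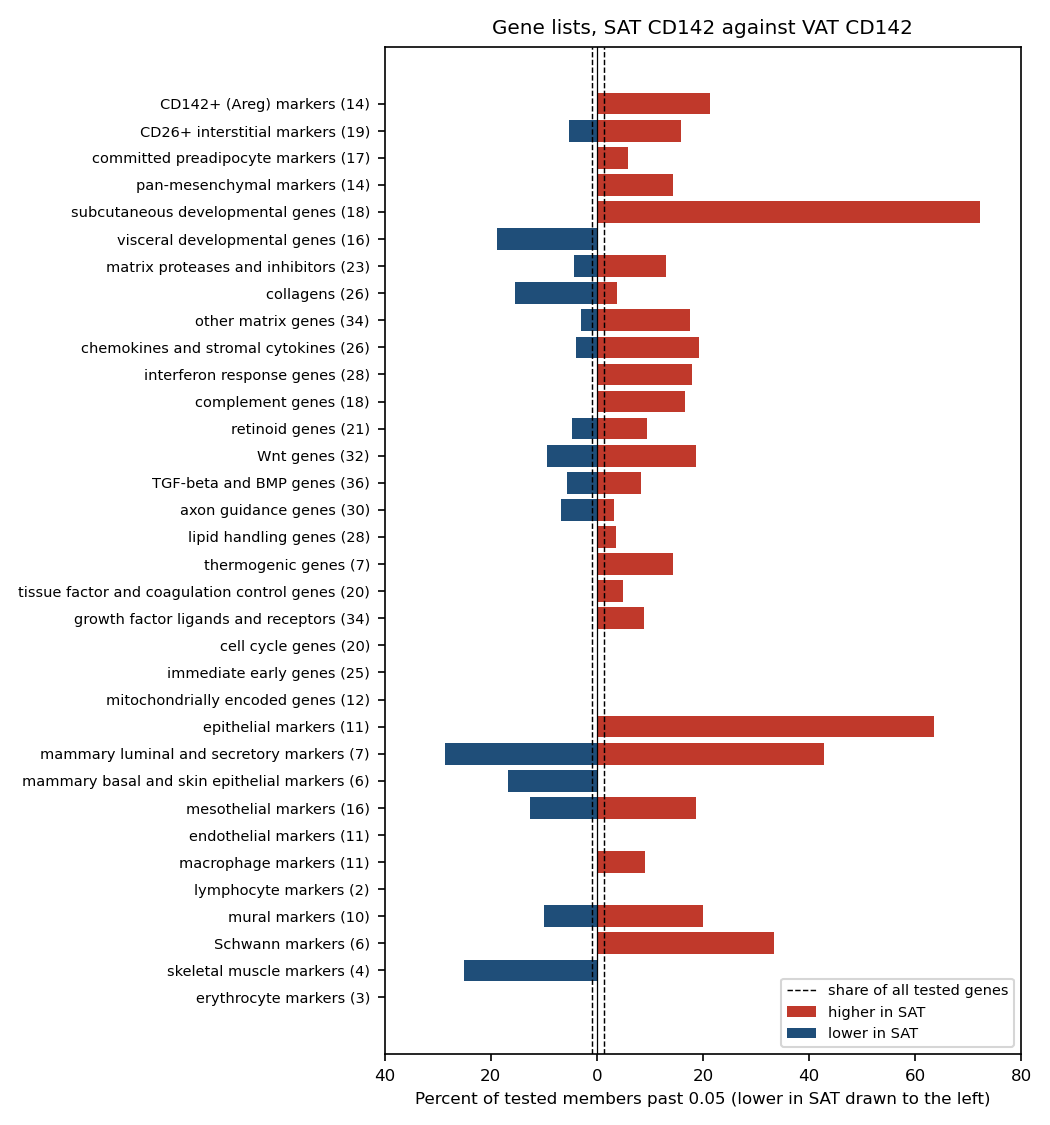
Percent of the tested members of each gene list (number tested in parentheses) that were higher in SAT (red, to the right) or lower (blue, to the left) at adjusted p under 0.05, with dashed lines at the share of all tested genes. Subcutaneous developmental genes (13 of 18) and epithelial markers (7 of 11) have the longest bars to the right, and the mitochondrial genome, immediate early and cell cycle lists have none. Mitochondrial genes lay far apart within the VAT pair, so their missing bar does not show equal levels.

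Secreted Wnt regulators changed in both directions. Wnt ligands bind Frizzled receptors, Sfrp proteins are secreted antagonists, Dkk proteins are secreted modulators, and R-spondins are secreted enhancers of the pathway. Of 32 tested Wnt genes, 6 were higher and 3 lower, with a median of 0.00. Among ligands, Wnt2 was higher at 33.4, 0.458 and 0.344 CPM (log2 difference 6.37 ± 0.56, adjusted p = 1.71e-05) and Wnt5b lower at 5.45, 41.3 and 46.1. Among Sfrp antagonists, Sfrp2 was higher at 649.8, 25.6 and 20.9 CPM and Sfrp4 at 439, 16.6 and 14.8, whereas Sfrp1 was lower at 87.6, 429 and 462. Dkk2 and Dkk3 were higher. Among R-spondins, Rspo2 was higher at 22.2, 1.88 and 1.94 CPM and Rspo3 lower at 3.59, 77.7 and 42.5. As for every called gene, the SAT library lay outside the VAT pair in each of these.

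Of 36 tested TGF-beta and BMP genes, 3 were higher and 2 lower (median -0.14). Chrdl1, an antagonist of BMP ligands, was higher at 428, 25.8 and 30.5 CPM. The ligand Bmp6 had no count in the SAT library and 217 and 415 in the VAT libraries, at least 108-fold lower. Bmp7 had no count in the SAT library and 28 and 43 in the VAT libraries, at least 12.1-fold lower. Bmp3, an atypical ligand, was called higher on 0.563 CPM in the SAT library and none in either VAT library. Of 30 tested axon guidance genes, the receptor Epha3 was higher (65.5, 7.20 and 6.79 CPM), the ligand Slit2 was lower (7.31, 65.8 and 115 CPM), and Sema3e was lower, with no count in SAT against 39 and 159 counts.

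Of 26 tested chemokine and stromal cytokine genes, 5 were higher and 1 was lower (median 0.30). Cxcl14, a chemokine made by stromal cells and a marker of committed preadipocytes, stood at 1421 CPM in the SAT library and at 110.2 and 76.0 in the VAT libraries (log2 difference 3.93 ± 0.51, adjusted p = 0.000388). Cxcl13, which attracts B cells, was at 193, 11.0 and 10.7 CPM, and Ccl8 at 29.4, 0.688 and 0.860. Cxcl9, an interferon-induced chemokine, was higher at 31.8, 3.94 and 1.94 CPM, and Cxcl5 was called with edgeR (adjusted p = 0.0375) but not with DESeq2 (adjusted p = 0.0816). The scavenger receptor Ackr4, which removes chemokines, was lower at 0.346, 31.2 and 20.3 CPM. Il1rl1, the receptor of interleukin 33, had 10.6 CPM in the SAT library, 0 in VAT library 1 and 0.215 in VAT library 2; edgeR called it (adjusted p = 0.000564) and DESeq2 did not (adjusted p = 0.200).

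Among 28 tested interferon response genes, 5 were higher and none lower, beside 1.36% higher and 0.992% lower among all tested genes. A positive fitted difference was found for 23 of them, with a median of 0.86 against -0.04 for all tested genes. The share of positive differences over all tested genes was not counted. Isg15, a ubiquitin-like modifier, stood at 47.7, 10.5 and 6.45 CPM (log2 difference 2.49 ± 0.48, adjusted p = 0.00872). Oas2, one of the enzymes that make oligoadenylate on double-stranded RNA, was at 29.9, 3.48 and 3.96 CPM, and Oas1a at 12.9, 1.56 and 3.01. Oas3 was called on 2.03, 0.0458 and 0.129 CPM but not with the 3 libraries alone (adjusted p = 0.0762), and the near-identical copies of the Oas1 family make its members' reads uncertain. Ifi27l2a stood at 294, 84.6 and 68.3 CPM. Usp18 (adjusted p = 0.0669), Ifit1 (0.266), Irf7 (0.846) and Mx1 (0.910) did not pass. Ptprc was under 1 CPM in all 5 libraries.

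Promoters of 3 of the called interferon genes are shown because such genes are known for the interferon-stimulated response element. They are given from RefSeq (GRCm38.p6, minus strand, 5′ to 3′, 300 bases each: Isg15 chr4:156200769-156201068, Oas1a chr5:120907476-120907775, Oas3 chr5:120777610-120777909). Capitals mark matches on either strand to GAAA, any 2 bases and GAAA again, which overlap each other in Isg15 (3 matches) and Oas1a (2 matches), with 1 match in Oas3.
Isg15: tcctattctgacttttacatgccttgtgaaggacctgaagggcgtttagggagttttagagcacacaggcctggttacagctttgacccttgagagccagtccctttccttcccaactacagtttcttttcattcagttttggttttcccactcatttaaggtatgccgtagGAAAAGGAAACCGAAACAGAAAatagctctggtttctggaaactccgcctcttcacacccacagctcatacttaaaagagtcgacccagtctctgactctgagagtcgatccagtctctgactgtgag
Oas1a: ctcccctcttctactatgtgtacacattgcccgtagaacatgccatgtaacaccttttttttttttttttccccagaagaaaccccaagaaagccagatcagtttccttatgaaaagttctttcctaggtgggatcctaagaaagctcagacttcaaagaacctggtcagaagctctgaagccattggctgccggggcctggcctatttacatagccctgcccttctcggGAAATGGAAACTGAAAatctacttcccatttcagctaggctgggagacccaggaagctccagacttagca
Oas3: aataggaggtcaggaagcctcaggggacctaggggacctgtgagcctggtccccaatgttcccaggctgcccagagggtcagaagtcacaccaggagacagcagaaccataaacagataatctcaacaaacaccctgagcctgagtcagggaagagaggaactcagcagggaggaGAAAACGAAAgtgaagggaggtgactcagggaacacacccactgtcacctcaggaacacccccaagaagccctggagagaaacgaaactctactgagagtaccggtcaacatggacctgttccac
All 3 of these promoters held the motif, as did 10 of the 17 found promoters of interferon genes that did not pass, beside 3.44% of all 32851 promoters. Oas2 and Ifi27l2a are named only.

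Complement, growth factor and clotting genes gave single large differences. C4b, a component of the classical complement pathway, was at 2722, 390.2 and 632 CPM (log2 difference 2.41 ± 0.55, adjusted p = 0.0262), C2 at 429, 79.2 and 46.6, and Clu (clusterin) at 118, 8.62 and 6.58, so that 3 of 18 tested complement genes were higher and none lower. Igfbp5, which binds insulin-like growth factors, was at 1780.2 CPM in the SAT library and 58.7 and 43.5 in the VAT libraries (log2 difference 5.12 ± 0.57, adjusted p = 0.000125). Erbb3 and the angiopoietin gene Angpt2 (27.5, 2.80 and 1.76 CPM) were the others of 34 tested growth factor genes that rose, and none fell. Of 20 genes around tissue factor and the control of clotting, 1 was higher: Gas6, the vitamin K-dependent ligand of TAM receptors, at 2685, 459 and 390.0 CPM (log2 difference 2.66 ± 0.51, adjusted p = 0.00852). Tfpi, the inhibitor of tissue factor, did not pass (51.2, 87.2 and 79.9 CPM).

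Retinoid metabolism genes differed at 3 points. Adh7, an alcohol dehydrogenase that oxidises retinol, was higher at 46.0, 0.504 and 0.731 CPM (log2 difference 6.20 ± 0.54, adjusted p = 1.71e-05). Cyp26b1, which degrades retinoic acid, was higher at 82.8, 1.05 and 3.70 CPM. Aldh1a3, which makes retinoic acid, was lower at 10.4, 488 and 786 CPM (log2 difference -5.94 ± 0.74, adjusted p = 0.000304), while its relative Aldh1a2 did not pass (19.4, 29.3 and 34.7 CPM; adjusted p = 0.844). The other 18 of the 21 tested genes of the list did not pass.

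Other genes that were lower in SAT by the naming rule had varied roles. Des (desmin, an intermediate filament of muscle and mural cells) was at 3.20, 138 and 119.7 CPM, Cadps (a factor of dense-core vesicle release) at 0.0433, 23.4 and 38.1, and Gatm (creatine synthesis) at 0.606, 62.0 and 22.1. Mmd2 had no count in the SAT library and 1266 and 526 in the VAT libraries, at least 306-fold lower over both, 447-fold against VAT library 1 alone and 174-fold against VAT library 2 alone. Tmem114 had no count in SAT and 408 and 246 in VAT, at least 112-fold lower. Sult1e1, the oestrogen sulfotransferase, was lower at 144, 1953 and 1274 CPM, Hp (haptoglobin) at 42.9, 567 and 658, and the phospholipase gene Pla1a at 36.8, 373 and 323. Megf10, Ttyh1 and Dusp15 were each under 1 CPM in SAT and above 10 CPM in both VAT libraries.

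Most markers of progenitor populations did not pass the test between the depots. Of 14 tested Areg markers, 3 were higher and none lower (median 0.64). They were Meox2, Abcg1 (a sterol exporter, at 17.9, 1.05 and 0.645 CPM) and Clec11a (a lectin-like growth factor, at 492, 48.6 and 31.1 CPM). Fmo2 (914, 623 and 839.5 CPM), Gdf10 (2522, 1934 and 1579.9 CPM) and Inmt (1959, 2988 and 2461 CPM), genes often used to mark Aregs, did not pass. Of 19 tested CD26+ interstitial markers, Wnt2, Ly6c1 and Opcml were higher and Bmp7 was lower (median -0.82), while Pi16 did not pass (64.1, 333 and 277 CPM; adjusted p = 0.0878). Of 17 committed preadipocyte markers only Cxcl14 passed, with Pparg at 34.7, 30.7 and 27.0 CPM. Of 14 pan-mesenchymal markers Thy1 and Col1a1 were higher.

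Among lipid handling genes 1 of 28 tested was higher (Plin4, a lipid droplet coat protein, at 59.2, 4.13 and 7.18 CPM), and among thermogenic genes 1 of 7 (Cox8b, at 9.52, 0.917 and 0.258 CPM). Both counts are of 1 gene, beside 1.36% higher among all tested genes. None of the 12 tested genes of the mitochondrial genome, of 25 immediate early genes and of 20 cell cycle genes passed. Mitochondrial genes lay far apart within the VAT pair, as did mt-Cytb at 8882 and 1122 CPM. That pair is the only source of residual spread, so the result for them does not show equal levels in the depots. In sorted bulk samples, fewer cells of a type and less RNA per cell cannot be told apart for any of these genes.

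Epithelial transcripts were present in the SAT CD142 library and nearly absent from the VAT CD142 libraries. The 24 epithelial markers summed to 296 CPM there, against 4.72 and 7.57 in the VAT CD142 libraries, 20.6 in the SAT CD26 library and 54.2 in the VAT CD26CD142 library. In the SAT CD142 library 1 of the 24 was at 0, against 7 and 9 in the VAT CD142 libraries. Every epithelial marker but Krt23 and Esrp2 was higher there than in both VAT CD142 libraries. The keratins of simple epithelium led the list, with Krt8 at 45.8, 0.275 and 0.860 CPM, Krt18 at 46.7, 0.733 and 0.344, and Krt7 at 16.1, 0.183 and 0.258. Krt19 was at 63.7, 0.0917 and 1.85 CPM and did not pass (adjusted p = 0.327).

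The filter asked for counts in at least as many libraries as a depot holds at minimum, so genes high in 1 library alone were left out of the test. Of the 24 epithelial markers 11 were tested and 7 were higher (also Cldn3, Cldn4, Spint1 and Spint2), which is a count over the members that passed the filter and not over the list. The adhesion gene Epcam, left out in this way, had 583, 1 and 2 counts in the 3 libraries, a ratio of 379 with a counting interval of 129 to 1843. Cdh1 (E-cadherin) was at 9.61, 0.138 and 0 CPM.

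Of 21 mammary luminal markers, 3 were at 0 in the SAT CD142 library, against 13 and 9 in the VAT CD142 libraries. Their sum was nonetheless lower in SAT (238, 809 and 907 CPM), because the list holds Aldh1a3 and the transferrin gene Trf (12.8, 288 and 93.1 CPM), both lower in SAT. Ltf (lactoferrin) had 551 counts in the SAT CD142 library and none in any other library, and Csn3 (kappa casein) had 394 and none. Wfdc18, a milk-associated protein, had 304 counts there, 5 in the SAT CD26 library and none in the VAT libraries. The receptor Prlr (26.8, 3.99 and 4.77 CPM), Cited1 (22.4, 1.01 and 0.215 CPM) and the oestrogen receptor Esr1 (75.6, 17.8 and 11.2 CPM) passed as higher, and Esr1 was as high in the SAT CD26 library (88.0 CPM). Csn2, Wap and Glycam1, genes of lactation, were at 0 in all 5 libraries. Basal and skin keratins were at or near 0, with Krt14 and Krt17 at 0 and Krt5 at 0.0865 CPM in the SAT CD142 library. The part of epithelial RNA in the other genes called higher was not tested.

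**Figure D4:**
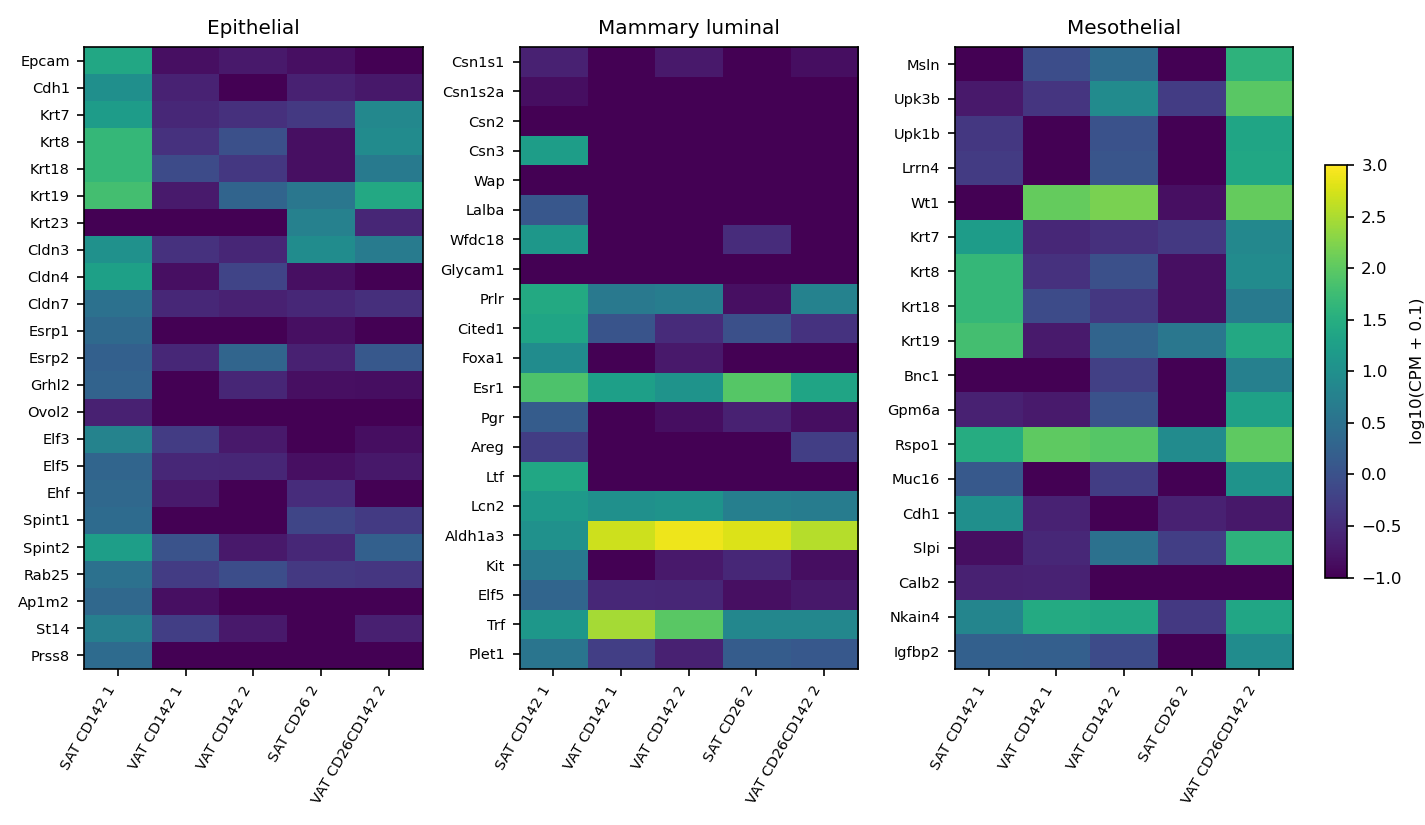
Level of epithelial (23 of 24), mammary luminal and mesothelial markers (rows) in the 5 libraries (columns), as log10 of CPM with 0.1 added. Epcam, Krt8, Csn3 and Ltf stand out in the SAT CD142 library, while Msln and Upk3b stand out in the VAT CD26CD142 library and are lower in both VAT CD142 libraries.

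The 18 mesothelial markers, which share 5 genes with the epithelial list and Wt1 and Bnc1 with the visceral list, summed to 222, 249 and 289 CPM in the 3 CD142 libraries, while Msln (mesothelin), lower in SAT, was only at 0, 0.779 and 2.41. Endothelial markers summed to 401, 454 and 385 CPM with none of 11 tested past the threshold. That list holds Fabp4, which is also on the preadipocyte and lipid lists, so the sum does not measure endothelial RNA alone. Pecam1 was at 6.36, 4.90 and 2.32 CPM. Macrophage markers summed to 62.0, 49.1 and 32.8 CPM, with Csf1r higher at 13.8, 2.38 and 1.81. Among mural markers, the channel genes Abcc9 (98.2, 7.24 and 8.51 CPM) and Kcnj8 (13.7, 1.38 and 1.08 CPM) were higher and Myh11 was lower (5.67, 37.9 and 62.6 CPM), with sums of 453, 443 and 581 CPM. The mural list holds Pdgfrb, which is also listed as pan-mesenchymal. Of 6 tested Schwann markers, S100b and Erbb3 (also on the growth factor list) were higher, and of 4 tested muscle markers Des was lower. Mlana, a melanosome protein gene that the naming rule picked, was higher at 18.0, 0.0458 and 0.258 CPM, whereas the pigment genes Tyr and Tyrp1 were at 0 and 0.0433 CPM in the same library.

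The pair with the same library number gave fewer differences than the pair with different numbers. By a rule with no test (at least 2-fold with 1 CPM added, with 10 CPM or more in whichever library was higher), 420 genes were higher (2.64%) and 408 lower (2.56%) in the SAT CD142 library than in VAT CD142 library 1, or 5.2% in all. Against VAT CD142 library 2 the counts were 892 (5.6%) and 1087 (6.83%), or 12.4% in all. The VAT libraries differed from each other by the same rule in 914 genes (5.74%), with 283 higher (1.78%) and 631 lower (3.96%) in library 1. The number of genes 2-fold apart between the depots within number 1 was therefore below that between the replicates of VAT. In the pair numbered 1, Tbx15, Shox2, Mmp3, Igfbp5 (ratio 30.3), Sfrp2 (25.4), Cxcl14 (12.9) and Col1a1 (9.82) were higher in SAT, and Wt1, Tcf21, Col6a5 (VAT to SAT ratio 104) and Aldh1a3 (46.9) were lower.

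**Figure D5:**
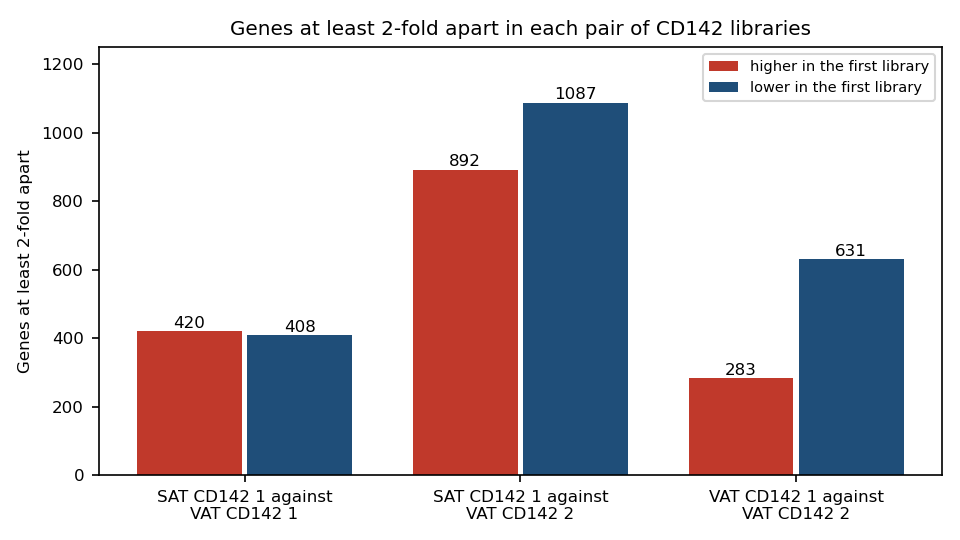
Number of genes at least 2-fold apart (y axis) in each pair of CD142 libraries (x axis), higher (red) or lower (blue) in the library named first. The pair numbered 1 has 420 and 408 genes, the pair of SAT library 1 and VAT library 2 has 892 and 1087, and the 2 VAT libraries have 283 and 631.

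The depot difference was then set beside that between the libraries named for CD26. Those 2 libraries differ by name in CD142 gate as well as in depot, with F3 at 5.32 CPM in SAT and 99.1 in VAT. Each is 1 library, so depot and gate cannot be told apart there. Most called genes had the same fitted sign there: 171 of the 217 higher and 148 of the 158 lower genes. The share of all tested genes with the same sign in both was not counted, so these counts are a description only. In a test of the difference between both contrasts, 34 genes were more positive in the CD142 libraries (0.214%) and 6 more negative (0.0377%), at an adjusted p under 0.05. Tbx15 (97.2 CPM in the SAT CD26 library and 0.206 in the VAT CD26CD142 library), Wt1 (0.0451 and 112) and Mmp3 (588 and 4.49) showed like directions in both, and their difference between contrasts did not pass (adjusted p = 1.00 for each). Tcf21, at 0.0451 and 229 CPM, did not pass either (adjusted p = 0.134). Genes whose contrasts did differ included F3, the keratins, Clec11a, Clu, Dkk3, Prlr, Aldh1a3, Bmp6 and Bmp7. Aldh1a3 was at 623 CPM in the SAT CD26 library, so that the SAT CD142 library, at 10.4, was the only low one of the 5. Bmp7, absent from the SAT CD142 library, was at 96.5 CPM in the SAT CD26 library and 68.1 in the VAT CD26CD142 library.

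With the gates taken from the titles, the SAT side of the comparison becomes the library named for CD26, and 446 genes were higher and 586 lower. Of the 375 genes called by library name, 247 were called again, 225 in the same direction and 22 in the opposite one. The patterning genes Tbx15, Shox2, Wt1 and Tcf21, and Mmp3 among the proteases, kept their direction and passed again. The direction turned for Cxcl14 (log2 difference -2.66), Clec11a (-2.33), Gas6 (-1.96), Krt8 (-3.51), Krt18 (-3.42) and F3 (-5.86), which by title would be far lower in SAT than in VAT.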

How the data were processed

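The 3 libraries compared and the 2 others hold poly(A)-selected RNA of sorted cells. The authors deposited raw counts, 1 whole number per gene and library, with no normalization. The deposited table also gives each gene's length in bases, another unit, which no printed value uses. The submitters' processing notes name featureCounts 1.5.0-p3, CASAVA, HISAT2 2.0.5 and the mm10 build. The strand setting and the annotation release are not given in the sources used here.

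Of 54532 genes, 15920 were kept by filterByExpr (minimum count 10, depot as the group) and 38612 removed. Counts were scaled by TMM and tested with the quasi-likelihood F test of edgeR 4.0.16 (R 4.3.3; limma 3.58.1) in 4 groups by library name over 5 libraries, with 1 residual degree of freedom. Adjustment was by Benjamini-Hochberg at 0.05 over all tested genes. The SE printed beside a log2 difference was derived from it and F (its size divided by the root of F), and is unreliable where either side has few counts. Fitted differences of genes at 0 on a side are no bounds, so such genes are given against a floor of 3 counts. Intervals for ratios are exact conditional intervals at 95%. The code was tested on simulated data. The VAT CD142 libraries differed far beyond sampling noise (chi-square per gene 146 over 16955 genes) and were counted as 2.

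Named genes were, in each direction, the 15 largest changes and the 10 highest levels among called protein-coding genes reaching 10 CPM in each library of the side that was higher, plus F3, Dpp4, Tbx15, Tcf21, Mmp3, Pecam1, Ptprc and any list member. Some genes that the rule names are not reported here. The members and lists were chosen with earlier results of these data known. Hepatocyte genes, transcription factor families, HOX genes and gene neighbours were looked at after seeing the values. The interferon-stimulated response element was a planned motif, whereas the AP-1 motif was not planned. Alternatives were DESeq2 1.42.0 (size factors and test), limma-voom, upper-quartile scaling, other filters, fewer libraries and the gates of the titles. Figures used matplotlib 3.10.9 and tables pandas 2.3.3 with Python 3.11.15.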

Additional observations from a re-analysis of the deposited data

Results flagged for a closer look

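For 11 of the genes named above, the difference between SAT and VAT in the CD142 libraries differed from that between the SAT CD26 and VAT CD26CD142 libraries (edgeR quasi-likelihood test of the difference, adjusted p under 0.05). Each value is the log2 difference in the CD142 libraries minus that in the CD26 libraries, as fitted. It was positive for Krt8 (13.71, adjusted p = 0.000340), Krt18 (12.79, 0.000340), Krt7 (10.48, 0.00184), Prlr (9.49, 0.00272), F3 (5.21, 0.0109), Dkk3 (5.12, 0.0128), Clu (4.43, 0.0195) and Clec11a (4.18, 0.0325). The keratins are on both the epithelial and the mesothelial list, and their SAT to VAT difference was 6.31 for Krt8 in the CD142 libraries and -7.40 in the CD26 libraries. Krt8 and Krt18 each had 1 count in the SAT CD26 library, so their size there is poorly fixed. The value was negative for Bmp6 (-9.35, adjusted p = 0.0214), Bmp7 (-8.68, 0.0321) and Aldh1a3 (-6.73, 0.00569). For Bmp6 and Bmp7 the SAT CD142 library had no count, so these values are no bounds. Each SAT group here is 1 library, and F3 was used in the sort. The SAT CD26 and VAT CD26CD142 libraries also differ by name in CD142 gate, which cannot be told apart from depot.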

How the results depend on the processing

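The count of 375 called genes (217 higher, 158 lower) was within 1.5 times under DESeq2 size factors (375), upper-quartile scaling (537, with all 375 among them), limma-voom (311), a filter of 5 CPM (393), without mitochondrial genes (408), and, in total, the DESeq2 test (452, of which 345 shared; 247 lower). It was larger with no filter (727: 425 and 302) and with the 3 libraries alone (582, of which 355 higher), and smaller with depot plus CD26 status as the model (83: 49 and 34). Without 1 VAT CD142 library that model gave 0 to 172 in all, 0 to 75 higher and 0 to 97 lower. By title it was 1032 (446 and 586). The share of called genes that were higher, 57.9%, was 45.4% with the DESeq2 test, 43.2% by title and 43.6% without VAT CD142 replicate 1. The pair count of 828 (420 and 408) became 1979 (892 and 1087) with VAT CD142 library 2 in place of library 1. For the pair numbered 1 it was 844 when scaled by total counts, with a less even split of 337 higher and 507 lower. It was 850 with 0.5 CPM added and 1066 with a minimum of 5 CPM. The 40 genes whose contrasts differed became 136 when scaled by the upper quartile and 181 unfiltered, alternatives added after seeing the data. The causes were not tested. In the 4-group model a replicate block leaves no residual degree of freedom. Depot plus CD26 status with the library number as a replicate block, added after seeing the data, left 1 and called 1 gene (Tbx15, log2 difference 8.85, adjusted p = 0.0444; 1 higher, 0 lower), beside 83 without the block; 2047 genes had an unadjusted p under 0.05. The labels do not say what a number marks, and whether it pairs the libraries could not be checked, since 1 group holds both numbers. Log2 differences that turned sign with the gates by title were Krt18 (-3.42), Krt8 (-3.51), Gas6 (-1.96), Cxcl14 (-2.66), Clec11a (-2.33), Pla1a (1.44), F3 (-5.86), Ptprc (1.13), Bmp7 (5.94), Adamts16 (3.33), Tnc (-0.0414), C2 (-0.57), Dkk3 (-1.01), Rspo2 (-0.81), Bmp6 (1.38), Sema3e (5.39), Cox8b (-6.76), Angpt2 (-2.19), Cldn4 (-2.62), Spint2 (-1.50), Prlr (-6.44), Csf1r (-0.45) and S100b (-2.49). Leaving out 1 VAT CD142 replicate gave -0.000496 to 0.357 for Dpp4 and -0.566 to 0.489 for Ptprc. Depth limits genes with few counts on a side, for which only a bound or a wide interval can be given.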

Other observations

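The 2 VAT CD142 libraries differed from each other in genes for which the SAT CD142 library sided with VAT CD142 library 1. A rule chosen after seeing the data asked for at least 4-fold with 1 CPM added, and at least 10 CPM. By it, VAT CD142 library 2 was above both libraries numbered 1 for 33 of 15920 genes and below both for 26. None of these was called between the depots. The rule itself picks genes far apart within the VAT pair, the only source of residual spread, so that outcome carries no information. Adamts4, an aggrecan-degrading protease, was at 10.00, 10.2 and 122 CPM in SAT library 1, VAT library 1 and VAT library 2, and the orphan nuclear receptor gene Nr4a3 at 20.3, 36.1 and 201. Itga5, the fibronectin receptor subunit, was at 133, 154 and 763 CPM. Genes below in library 2 were mainly mitochondrially encoded or hepatocyte genes, among them mt-Cytb (6439, 8882 and 1122 CPM), Apoa1 (39.6, 16.9 and 1.85 CPM), Mup3 (29.2, 12.7 and 0.387 CPM) and Cyp2e1 (29.4, 13.1 and 2.32 CPM).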
